A study of Sus scrofa with 12 samples.

Results

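The genes examined here encode acid hydrolases of the lysosome, proteins of its membrane, subunits of its proton pump and a pair of transcription factors that act on lysosomal genes. They were given as 46 symbols, and a symbol counted as measured where a row of the deposited gene table carried that name alone. Where a symbol had several rows (CTSB, PPT1, SCARB2 and ATP6AP2), the row with the highest mean count was used. This left 35 genes among the 29150 loci of the table. All 35 passed the filter on low values, a mean of at least 0.5 FPKM (fragments per kilobase of transcript, scaled to library size), which kept 20421 loci.

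The study sequenced RNA from left ovaries of 12 gilts (young sows) of a New French Yorkshire line kept on a single farm. Of these, 6 gilts with consecutive estrus cycles, killed during the third estrus, form the ES group. The other 6, called NES, are full sisters of the ES gilts in which no estrus was recorded. Neither the day of slaughter of the NES gilts nor any age at slaughter is given in the sources used here. The labels name no treatment, and every library comes from a separate gilt. The comparison asks how ovaries of gilts killed in estrus differ from those of sisters without recorded estrus. Whether the NES ovaries cycled without recorded estrus was not tested, and stage of the cycle and cycling itself cannot be told apart.

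Lysosomes are the acidic compartments in which a cell breaks down proteins, lipids, glycans and whole organelles. A vacuolar proton pump acidifies the lumen, most hydrolases reach it with a mannose 6-phosphate tag, and heavily glycosylated membrane proteins shield the bilayer. TFEB and TFE3, members of the MiT/TFE family, bind a short E-box element shared by many lysosomal genes. In the ovary, lysosomes are known for the breakdown of follicles that do not ovulate and of regressing corpora lutea, and for freeing cholesterol from lipoproteins; macrophages, which engulf dying cells, are rich in them.

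The libraries held 58140547 to 68961955 counts each, so depth differed little between gilts. An ovary labelled ES3, the gilt numbered 3 in the ES group, stood apart before any gene was tested. Granulosa markers (11 genes with a locus, none at 0 in any library) summed to 475 CPM in ES3, against 1720 to 6943 CPM in the other ES ovaries and 1575 to 4787 CPM in NES. Theca markers (7 genes, none at 0) summed to 109 CPM in ES3, 256 to 1642 CPM in the other ES ovaries and 660 to 1130 CPM in NES. CPM, read counts scaled to library size with TMM factors, compares libraries within a gene, not genes with each other. Macrophage markers (20 of 22 with a locus) summed to 1866 CPM in ES3, against 143 to 206 CPM in the other ES ovaries and 117 to 272 CPM in NES. All 20 were highest in ES3, and MARCO alone was at 0 in some library. The margin was uneven: ES3 was 1.05 times the next library for MRC1 and 79.9 times for LYZ. The oocyte genes GDF9 and BMP15 were counted in all 12 libraries, which goes with the ovarian label. Of the 9 oocyte markers with a locus, FIGLA and NOBOX were at 0 in some library. Results that rest on ES3 are given with and without it.

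No lysosomal gene passed the test between ES and NES ovaries. With edgeR's quasi-likelihood test and Benjamini-Hochberg adjustment over 20421 loci, 0 of 35 genes were called at an adjusted p under 0.05, against 193 of all loci (0.945%). Unadjusted p-values under 0.05 were found for 18 of the 35 genes, all of them higher in ES (51.4%, against 9.5% of all loci). That count depended on the fit: it was 13 with library totals in place of TMM factors (16.2% of all loci in either direction), 4 with the replicate number as a block (13.3%) and 1 with limma on log2(FPKM + 0.5) (14.8%). DESeq2, another count test, called ATP6V0D1 and CTSC (2 of 35, against 5.22% of all loci) and gave no p-value for 6 genes that it marked for an outlying count. The log2 difference, ES minus NES, was positive in 34 of 35 genes (56.2% of all loci), and its median was 0.59, against 0.043 over all loci. SGSH, the enzyme that removes sulfate from heparan sulfate, was the exception at -0.17 ± 0.18 (SE).

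These shares shrank when ES3 was left out. The median log2 difference of the 35 genes was then 0.25, and 29 were positive (53.5% of all loci). Unadjusted p-values under 0.05 were found in 8 genes higher in ES (22.9%, against 8.11% of all loci) and in SGSH, lower in ES (6.55% of all loci were lower at that p). Of the 18 genes at that p with all 12 libraries, 7 were at it in both fits. Adjusted p-values were under 0.05 for 0 of 35 genes without ES3 as well, with edgeR. DESeq2 without ES3 called ATP6V0D1 (4.87% of all loci) and gave no p-value for CTSC, which it marked for an outlying count.

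**Figure D1:**
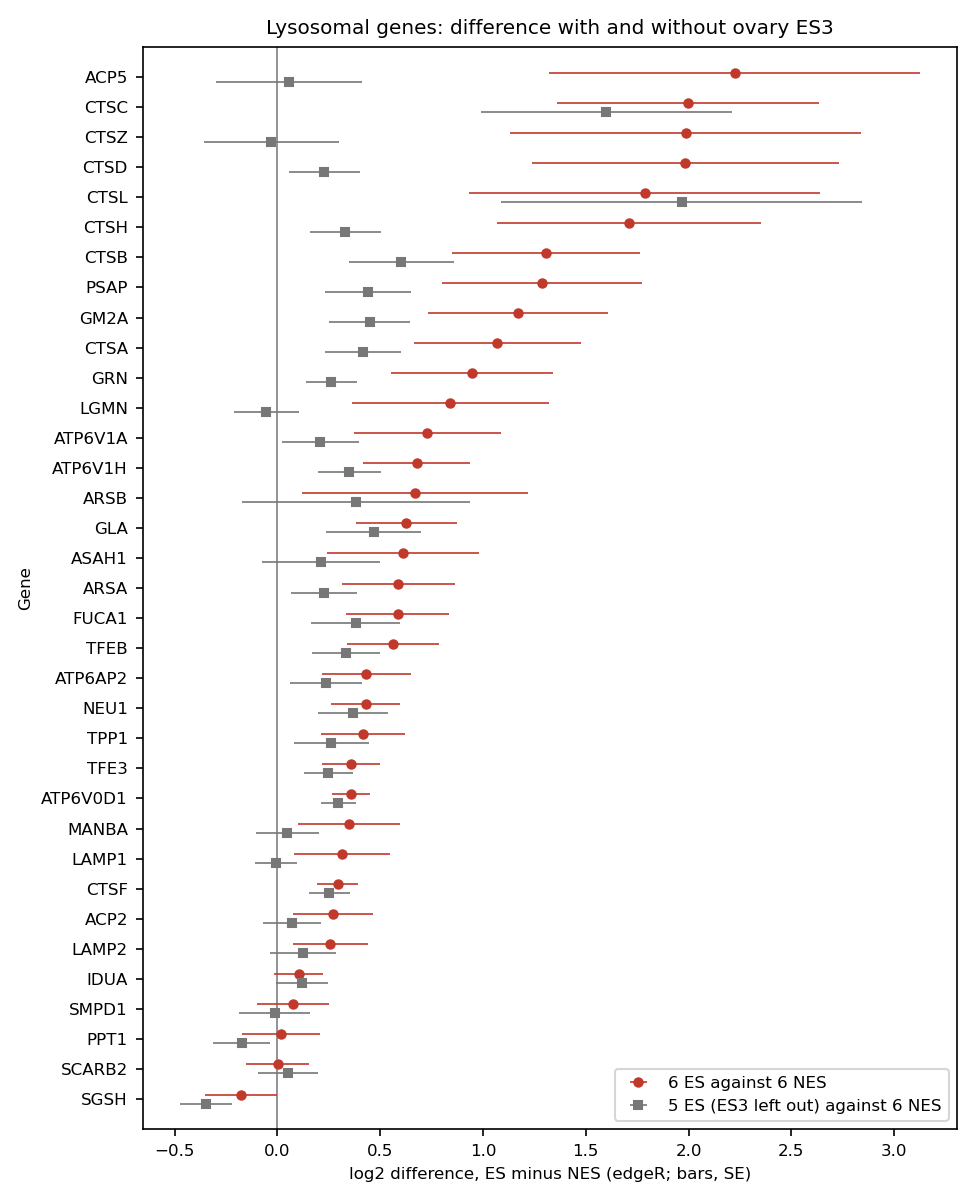
Log2 difference of each of the 35 lysosomal genes, ES minus NES, with its standard error from the edgeR fit; red circles use all 12 libraries and grey squares leave out ES3. The median shifts to 0.25 without ES3, against 0.59 with all 12 libraries, and CTSD, CTSZ and ACP5 lie near 2 with ES3 and at 0.23 or below without it.

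Per length, the most abundant of these transcripts were PSAP at a mean of 79.1 FPKM over the 12 libraries, CTSB at 59.0, LAMP1 at 38.8 and CTSD at 33.2. The least abundant was ARSB at 0.799 FPKM, whose row is a short locus that covers 0.925% of the RefSeq span of ARSB, so it says little of that gene. A further row on the opposite strand exists for CTSB, PPT1, SCARB2 and ATP6AP2. In all, 21 of the 35 loci overlap another locus, none on the same strand. The libraries keep strand, but the strand setting of the counting is not given in the sources used here.

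Cathepsins and legumain, the proteases of the lysosome, were measured as 10 genes. All 10 had a positive log2 difference, with a median of 1.51, and 8 of 10 were highest in ES3. Without ES3, 8 of 10 were positive and the median was 0.30. Summed over the 10 genes, ES3 had 5703 CPM and ES4 had 1730.5 CPM, while the other ES ovaries had 604 to 1036 CPM and the NES ovaries 545 to 742 CPM.

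CTSD (chromosome 2, 1184804 to 1198930, minus strand, Sscrofa11.1) encodes cathepsin D, an aspartic protease and the main endopeptidase of the lysosome. Its level was 191, 116, 2423, 178, 129 and 183 CPM in ES1 to ES6, against 154, 172, 93.4, 136, 117 and 139.8 CPM in NES1 to NES6. ES3 was 17.3 times the median of the other libraries, ES1, ES4 and ES6 lay just above the NES range, and ES2 and ES5 lay within it. The log2 difference was 1.99 ± 0.75 (SE; adjusted p = 0.221, edgeR) with ES3 and 0.23 ± 0.17 without it.

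CTSB (chromosome 14, 15014140 to 15035086, minus strand), a cysteine protease of broad specificity, had 358, 226, 1731, 708, 276 and 265 CPM in ES1 to ES6. In NES1 to NES6 it had 234, 280.4, 207, 212, 249 and 256 CPM. Here ES3 and ES4 were both high, ES1 lay above all NES ovaries, and ES2, ES5 and ES6 lay within their range. ES minus NES, the log2 difference came to 1.31 ± 0.46 (edgeR adjusted p = 0.192), and 0.60 ± 0.25 without ES3.

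CTSC (chromosome 9, 21726570 to 21761795, minus strand) encodes cathepsin C, the dipeptidyl peptidase that activates serine proteases of granules in leukocytes. It reached 426 CPM in ES3 and 529.9 CPM in ES4. The other ES ovaries had 61.8, 51.9, 53.1 and 59.9 CPM (ES1, ES2, ES5 and ES6), against 49.7, 56.1, 46.7, 27.5, 47.3 and 68.9 CPM in NES1 to NES6. Outside ES3 and ES4 the groups overlapped. CTSC had the largest rise of the 35 genes in ES4, 10.9 times the NES median. Its log2 difference stayed at 1.599 ± 0.61 without ES3, beside 2.00 ± 0.64 with it. The adjusted p was 0.155 with edgeR and 0.017 with DESeq2. Macrophage markers, 1866 CPM in ES3, summed to 143 CPM in ES4, within the NES range.

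CTSH, CTSZ and LGMN were far higher in ES3 than in any other library. CTSH (chromosome 7, 48083572 to 48106074, minus strand), an aminopeptidase, had 27.2, 22.0, 291, 38.1, 22.7 and 28.1 CPM in ES1 to ES6, against 20.5, 19.95, 15.6, 22.2, 24.3 and 28.6 CPM in NES1 to NES6. CTSZ (chromosome 17, 59141497 to 59149377, minus strand), a carboxypeptidase, had 6.42, 6.66, 187, 12.1, 7.32 and 16.5 CPM in ES1 to ES6, against 8.48, 14.0, 6.02, 12.1, 5.25 and 13.7 CPM in NES1 to NES6. Apart from ES3, the ES and NES values of both genes overlapped. For CTSH the log2 difference was 1.71 ± 0.64 (edgeR adjusted p = 0.22), and 0.33 ± 0.17 without ES3. For CTSZ it was 1.99 ± 0.85 (edgeR adjusted p = 0.272) and turned to -0.031 ± 0.33 without ES3. LGMN, the asparaginyl endopeptidase legumain, had 33.9, 46.8 and 273 CPM as the lowest, median and highest ES values, against 35.3, 47.3 and 56.1 CPM in NES, and its log2 difference of 0.84 turned to -0.053 without ES3.

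CTSL and CTSF followed other patterns. CTSL (chromosome 10, 27666976 to 27675171, minus strand), cathepsin L, a cysteine endopeptidase known in granulosa cells of ovulating rodent follicles, had 187, 13.1, 23.6, 1.85, 36.9 and 137 CPM in ES1 to ES6. In NES1 to NES6 it had 34.99, 4.88, 21.8, 7.36, 26.6 and 20.03 CPM. It was high in ES1 and ES6, lowest of all libraries in ES4, and in ES3 within the NES range. The ES mean of 66.6 ± 76.4 CPM (SD, n = 6) thus stood beside an NES mean of 19.3 ± 11.5 CPM (SD, n = 6), with a log2 difference of 1.79 ± 0.85 (edgeR adjusted p = 0.321). ES1 and ES6 also had the highest sums of granulosa markers (6943 and 6560 CPM) and of theca markers (1642 and 1543 CPM). Granulosa sums were 475 to 2327 CPM in the other ES ovaries and 1575 to 4787 CPM in NES. The highest NES sum was in NES1, where CTSL was at 34.99 CPM. The part of granulosa, theca or other cells in the CTSL levels was not tested. CTSF (chromosome 2, 5855035 to 5863424, plus strand), a cysteine protease with a long propeptide, had 67.9, 54.4, 72.9, 70.8, 66.1 and 58.8 CPM in ES1 to ES6, against 48.5, 57.4, 51.8, 49.8, 61.6 and 49.8 CPM in NES1 to NES6. For CTSF, 4 of 6 ES values lay above every NES value, and ES3 was not far from the others. Its log2 difference was 0.29 ± 0.10 with ES3 (edgeR adjusted p = 0.182) and 0.25 ± 0.10 without it.

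The remaining proteases were CTSA, the protective protein of neuraminidase and beta-galactosidase, and TPP1, a tripeptidyl peptidase. CTSA had 26.5, 40.8 and 182 CPM as the lowest, median and highest ES values, against 26.2, 30.8 and 34.5 CPM in NES, and 5 of 6 ES ovaries lay above all NES ovaries. TPP1 had 37.2, 56.8 and 93.4 CPM in ES, against 38.2, 45.97 and 62.4 CPM in NES, with ES3 and ES4 above all NES ovaries.

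**Figure D2:**
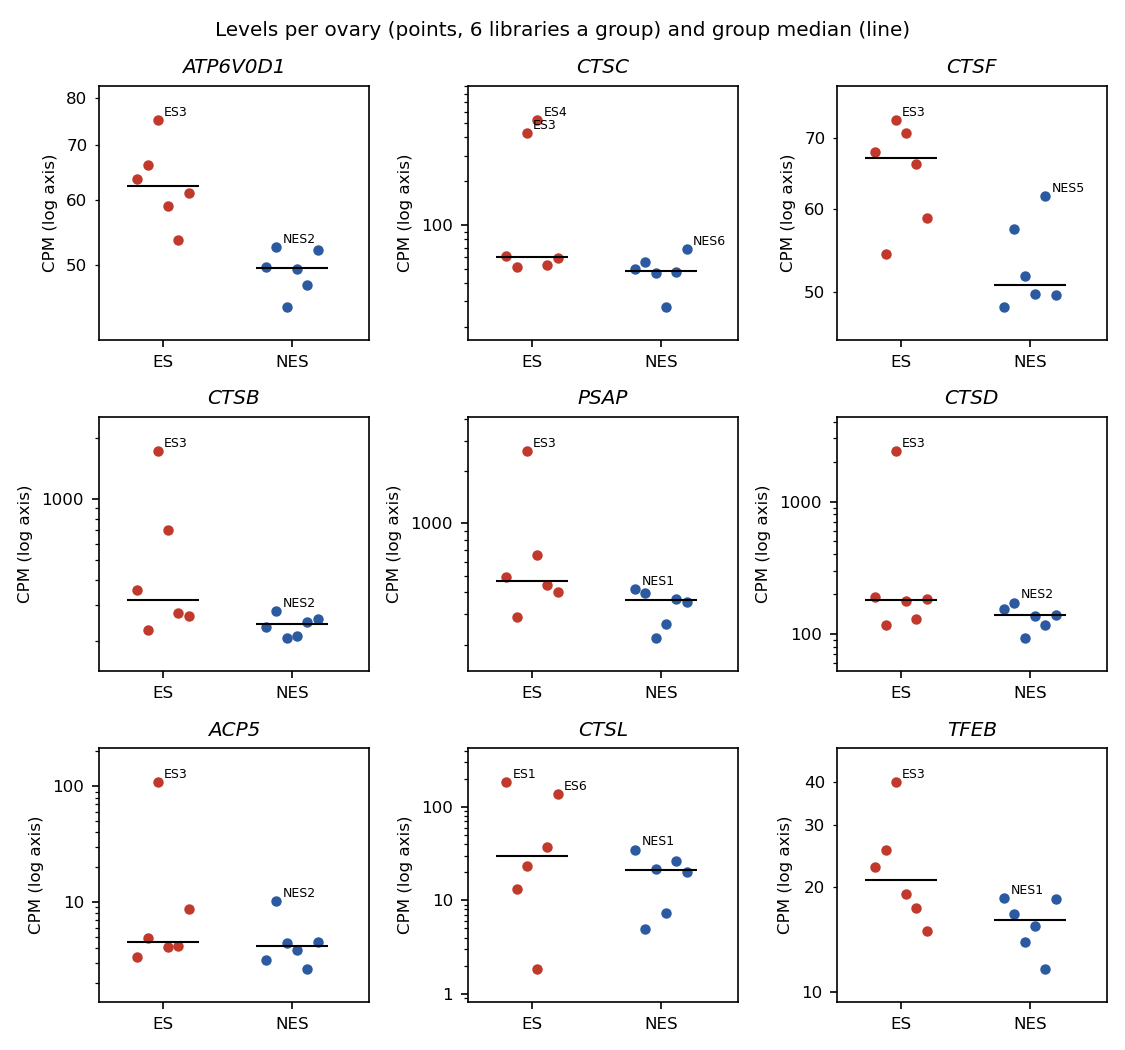
Level of 9 lysosomal genes in each ovary in CPM on a log axis, ES left of NES, with a point per library and a line at the group median; libraries named in the panels are those at the top of their group. ES3 lies far above the other points for CTSD, PSAP, CTSB and ACP5, ES3 and ES4 share the top for CTSC, ES1 and ES6 lead CTSL, and the ES and NES points do not overlap for ATP6V0D1.

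A group of 8 genes acts on sphingolipids, gangliosides and lipid-modified proteins. All 8 had a positive log2 difference (median 0.60), 7 of 8 were highest in ES3, and 6 of 8 stayed positive without it (median 0.30). PSAP and GM2A, the activator proteins that lift lipids out of membranes for the hydrolases, led the group.

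PSAP (chromosome 14, 74734185 to 74858240, minus strand), the precursor of the saposins, had 491, 288, 2626, 659, 443 and 402 CPM in ES1 to ES6, against 416, 394, 219, 265, 366 and 353 CPM in NES1 to NES6. ES1, ES3, ES4 and ES5 lay above every NES ovary, and ES2 and ES6 within the NES range. Its log2 difference was 1.29 ± 0.49 (edgeR adjusted p = 0.222), and 0.44 ± 0.21 without ES3. GM2A (chromosome 16, 71740319 to 71754975, minus strand) had 24.6, 14.2, 131, 30.4, 32.3 and 32.9 CPM in ES1 to ES6, against 19.0, 21.6, 16.8, 16.3, 24.5 and 19.5 CPM in NES1 to NES6. In all, 5 of 6 ES ovaries were above all NES ovaries and ES2 was below all of them. The log2 difference was 1.17 ± 0.44 (edgeR adjusted p = 0.217), and 0.45 ± 0.20 without ES3. The GM2A row covers 50% of the RefSeq span of the gene.

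Among the hydrolases of this group, ASAH1, the acid ceramidase, and ARSA, which removes sulfate from sulfatides, had their highest values in ES3, 82.4 and 39.0 CPM, against NES maxima of 31.9 and 14.7 CPM. GLA, alpha-galactosidase A, had 8.03, 15.7 and 25.05 CPM as its lowest, median and highest ES values, against 8.87, 11.05 and 12.3 CPM in NES, and 4 of 6 ES ovaries exceeded all NES ovaries. NEU1, the sialidase, ranged over 12.5 to 22.7 CPM in ES and 12.0 to 16.6 CPM in NES. Its highest value was in ES4, followed by ES6 at 22.1 CPM and ES3 at 21.4 CPM. SMPD1, acid sphingomyelinase, and PPT1, a palmitoyl-protein thioesterase, had log2 differences of 0.076 ± 0.17 and 0.017 ± 0.19, and both were negative without ES3 (-0.013 and -0.17). For these 2 genes the ES range contained the NES range.

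The 3 measured glycosaminoglycan hydrolases had ES3 at 0.977 (IDUA), 1.62 (SGSH) and 3.38 (ARSB) times the median of the other libraries. IDUA, alpha-L-iduronidase, had 58.3, 63.9 and 81.7 CPM as the lowest, median and highest ES values, against 52.7, 63.5 and 73.1 CPM in NES, and ES3 was at 63.1 CPM. SGSH had 11.5, 13.4 and 22.7 CPM in ES, against 12.95, 17.0 and 19.4 CPM in NES. Its highest value was ES3 and the other ES ovaries did not exceed 14.5 CPM, so its log2 difference without ES3 was -0.35 ± 0.13 (edgeR adjusted p = 0.229). ARSB, arylsulfatase B, had 0.208, 0.568 and 1.36 CPM in ES, against 0.143, 0.378 and 0.904 CPM in NES, with ES3 and ES4 above all NES ovaries. The median ratio of ES3 to the other libraries was 1.62 over the 3 genes, beside 6.39 over the 10 cathepsin-group genes.

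The 2 glycoprotein hydrolases with a row of their own, MANBA and FUCA1, were both highest in ES3. MANBA, beta-mannosidase, had 37.6 CPM there and 12.2 to 22.0 CPM in the other ES ovaries, against 13.4 to 17.8 CPM in NES. FUCA1, alpha-L-fucosidase, had 35.8 CPM in ES3 and 29.3 CPM in ES4, against 11.2 to 18.7 CPM in NES. Its log2 difference was 0.59 ± 0.25 with ES3 and 0.38 ± 0.21 without it.

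The 3 membrane proteins with a row of their own had a median log2 difference of 0.26, and of 0.052 without ES3. LAMP1 (chromosome 11, 78600645 to 78617616, plus strand), a major glycoprotein of the lysosomal membrane, had 91.0, 79.3, 231, 111, 94.9 and 91.5 CPM in ES1 to ES6, against 101, 94.4, 78.0, 101, 91.1 and 97.4 CPM in NES1 to NES6. ES3 was 2.08 times the next library, ES4 was second, and the other ES values lay within the NES range. Its log2 difference was 0.31 ± 0.23 (edgeR adjusted p = 0.535) with ES3 and -0.0075 ± 0.10 without it. LAMP2, its relative and a receptor of chaperone-mediated autophagy, had 196, 317 and 455 CPM in ES, against 212, 256 and 355 CPM in NES. SCARB2, the receptor that carries beta-glucocerebrosidase to lysosomes, had 273, 356 and 457 CPM in ES, against 279, 354 and 461 CPM in NES. It was the only one of the 35 genes with its highest value in an NES ovary, NES1, and ES3 stood at 288 CPM.

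Subunits of the proton pump held the smallest p-value of the 35 genes. ATP6V0D1 (chromosome 6, 28089647 to 28132085, minus strand) encodes subunit d of the membrane sector. It had 63.7, 66.2, 75.2, 59.0, 53.6 and 61.3 CPM in ES1 to ES6, against 49.8, 52.6, 44.5, 49.4, 47.4 and 52.2 CPM in NES1 to NES6. Every ES value lay above every NES value, the only one of the 35 genes for which the groups did not overlap (0.509% of all loci). The ATP6V0D1 locus overlaps HSD11B2 and RIPOR1 on the opposite strand. Whether reads of those genes are part of its counts was not tested. The 6 ES ovaries averaged 63.2 ± 7.30 CPM and the 6 NES ovaries 49.3 ± 3.03 CPM (mean ± SD), a 1.28-fold level. The log2 difference was 0.36 ± 0.094 (adjusted p = 0.09, edgeR), and 0.30 ± 0.086 without ES3 (adjusted p = 0.123, edgeR). DESeq2 gave adjusted p-values of 0.00835 with all libraries and 0.0154 without ES3.

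The 3 other pump genes were highest in ES3. ATP6V1A, the catalytic subunit, had 28.6, 49.5 and 167 CPM in ES, against 33.8, 39.0 and 52.3 CPM in NES. ATP6V1H, a regulatory subunit, had 14.9, 21.0 and 48.9 CPM in ES, against 12.5, 14.9 and 18.6 CPM in NES, and 4 of 6 ES ovaries lay above all NES ovaries. ATP6AP2, the accessory protein also known as the prorenin receptor, had 28.01, 53.1 and 86.7 CPM in ES, against 31.9, 40.2 and 50.2 CPM in NES. Without ES3 the log2 differences were 0.21, 0.35 and 0.24, beside 0.73, 0.68 and 0.43 with it.

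The 2 transcription factors had a median log2 difference of 0.46, and of 0.29 without ES3. TFEB (chromosome 7, 36869488 to 36921290, minus strand), which drives expression of lysosomal and autophagy genes, had 22.8, 25.5, 40.0, 19.0, 17.4 and 14.97 CPM in ES1 to ES6, against 18.6, 16.7, 13.9, 15.4, 11.7 and 18.4 CPM in NES1 to NES6. In all, 4 of 6 ES values exceeded every NES value, with ES3 highest and ES6 and ES5 inside the NES range. For TFEB the log2 difference was 0.56 ± 0.22 (edgeR adjusted p = 0.239), and 0.34 ± 0.17 without ES3. TFE3 (chromosome X, 43100006 to 43116296, minus strand) had 42.1, 33.6, 52.8, 40.5, 27.0 and 38.6 CPM in ES1 to ES6, against 29.4, 28.4, 29.6, 30.4, 30.2 and 34.98 CPM in NES1 to NES6. ES5 was the lowest of all 12 libraries, and 4 of 6 ES values were above all NES values. Its log2 difference was 0.36 ± 0.14 (edgeR adjusted p = 0.236), and 0.25 ± 0.12 without ES3. RNA levels say nothing of how much TFEB or TFE3 protein was in the nucleus, the step at which these factors are known to be controlled.

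The phosphatases and progranulin completed the set. ACP5 (chromosome 2, 70203114 to 70210263, minus strand), the tartrate-resistant acid phosphatase known as a marker of osteoclasts and activated macrophages, had 3.34, 4.89, 109.6, 4.11, 4.15 and 8.69 CPM in ES1 to ES6. In NES1 to NES6 it had 3.18, 10.2, 4.44, 3.88, 2.65 and 4.49 CPM. ES3 was 26.4 times the median of the other libraries, the largest such ratio of the 35 genes, and NES2 was the next library. With ES3 the log2 difference was 2.22 ± 0.90 (edgeR adjusted p = 0.249), and without it 0.058 ± 0.36. GRN, progranulin, which helps lysosomal enzymes work, had 74.5, 82.2 and 372 CPM as its lowest, median and highest ES values, against 53.3, 66.0 and 84.4 CPM in NES. ACP2, lysosomal acid phosphatase, had 27.7, 40.7 and 74.8 CPM in ES, against 35.9, 37.8 and 41.1 CPM in NES.

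Across the set, ES3 was the library that stood apart. It was the highest of the 12 libraries in 29 of 35 genes (82.9%), beside 19.7% of all loci. The exceptions were CTSC, NEU1 and ARSB, highest in ES4, CTSL and IDUA, highest in ES1, and SCARB2, highest in NES1. Counts on the 35 genes made up 1.073% of the ES3 library and 0.39% of the ES4 library, beside 0.196 to 0.275% in the other ES libraries and 0.19 to 0.269% in NES. Summed over the genes, the level was 2905, 1993, 10949.5, 4019, 2702 and 2773 CPM in ES1 to ES6, against 2655, 2432, 1859, 2089, 2367 and 2395 CPM in NES1 to NES6.

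**Figure D3:**
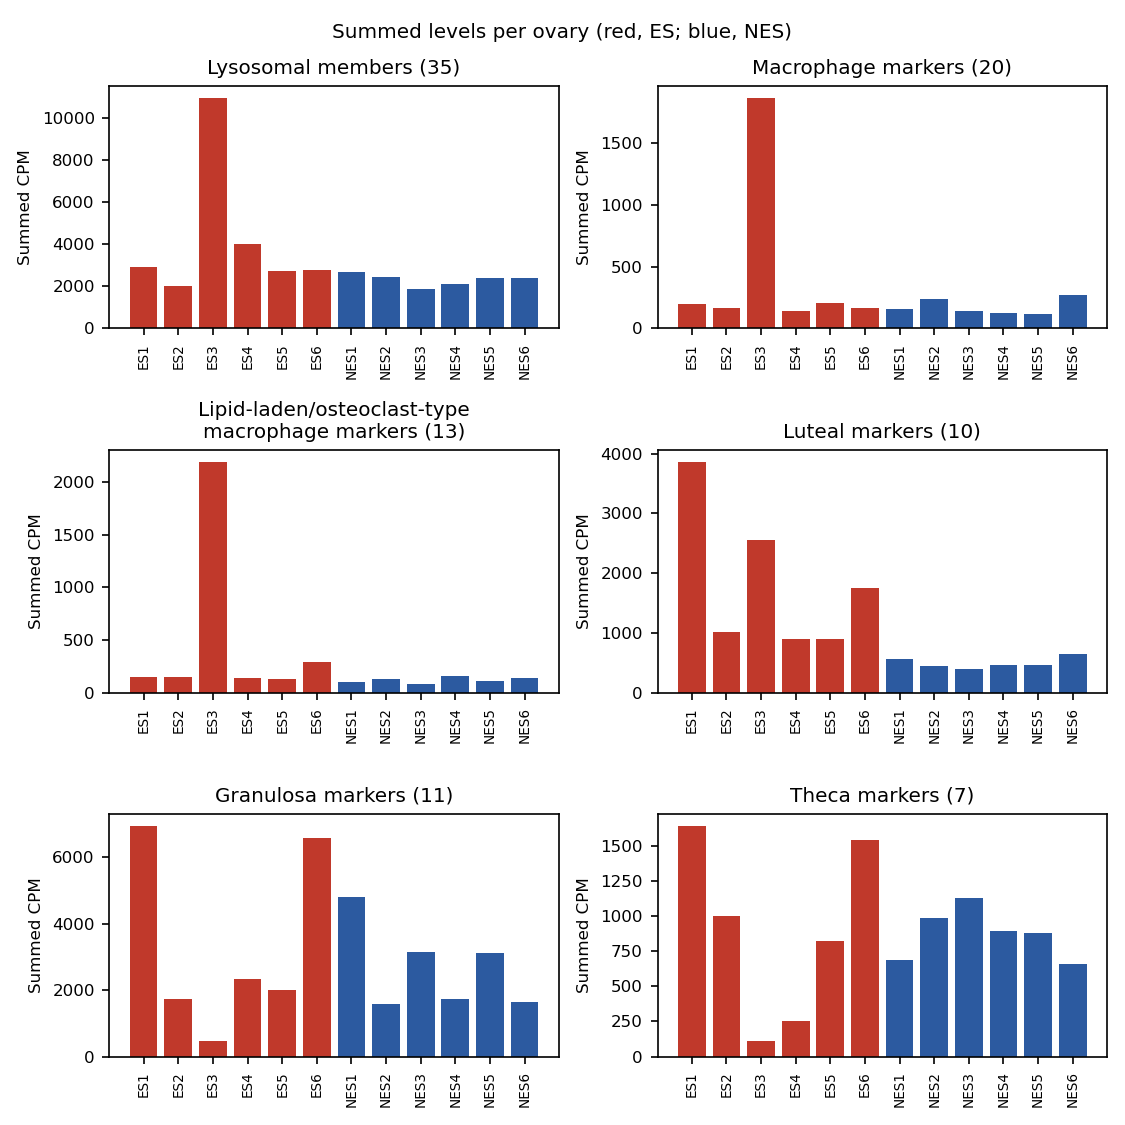
Summed level in CPM per ovary (a bar each, ES left of NES), for the lysosomal genes and for marker lists of macrophages and ovarian cell types. ES3 is at the top for the lysosomal genes (10949.5 CPM) and macrophage markers (1866 CPM) and at the bottom for granulosa (475 CPM) and theca markers (109 CPM).

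The size of the ES3 excess differed widely between genes. The ratio of ES3 to the median of the other 11 libraries had a median of 2.45 over the 35 genes and 0.99 over all loci. It was at least 2 in 22 genes (62.9%, beside 9.67% of all loci) and at least 4 in 12 genes (34.3%, beside 2.81%). ACP5 (26.4), CTSZ (22.1), CTSD (17.3), CTSH (12.9) and CTSC (8.02) led, and CTSL (1.08), IDUA (0.977) and SCARB2 (0.808) were last.

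**Figure D4:**
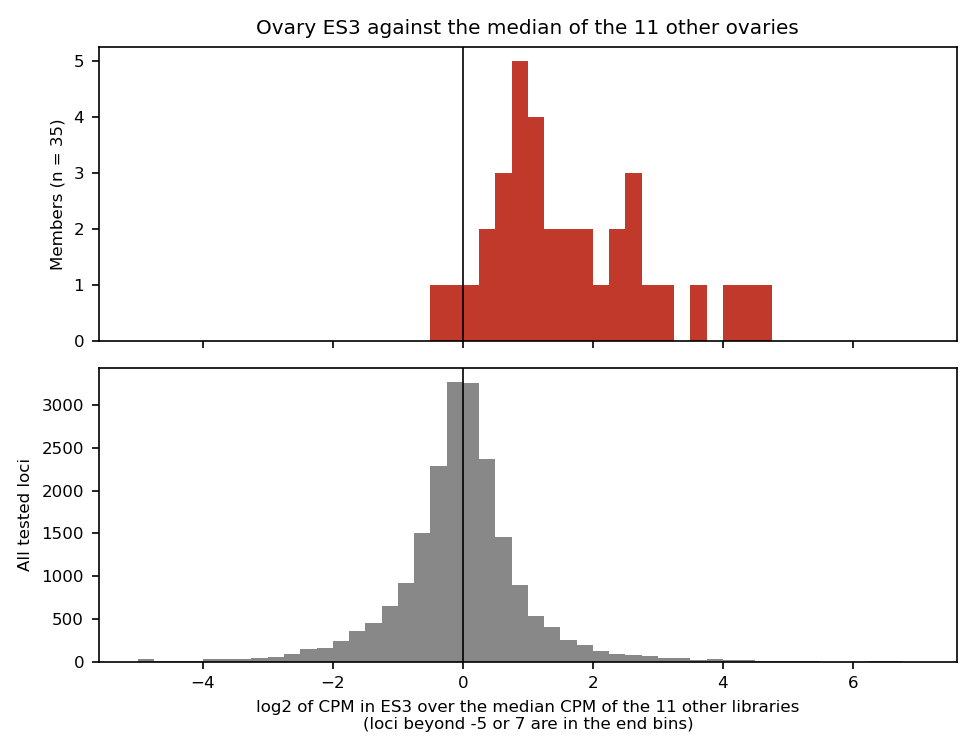
Distribution of the log2 ratio of ES3 to the median of the other 11 libraries, for 20284 tested loci with counts on both sides of the ratio and for the 35 lysosomal genes. All loci centre near 0 with tails on both sides, while 33 of the 35 genes lie above 0 and 12 lie at or above 2, a 4-fold ratio.

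Other ovaries differed from the rest by less. The median over the 35 genes of a library's log2(CPM + 0.5), minus the median of the 12 libraries, was 1.14 in ES3, 0.28 in ES4, 0.20 in ES6 and 0.14 in ES1. It was -0.25 in ES2 and -0.31 in NES3, which held the lowest value of 10 and 8 genes. ES3 and ES4 were the highest pair of libraries in 15 genes, CTSA, CTSB and LAMP1 among them, and ES4 was at least 2-fold above the NES median in 5. The summed levels ran from 1993 to 10949.5 CPM in ES, or to 4019 CPM without ES3, and from 1859 to 2655 CPM in NES.

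**Figure D5:**
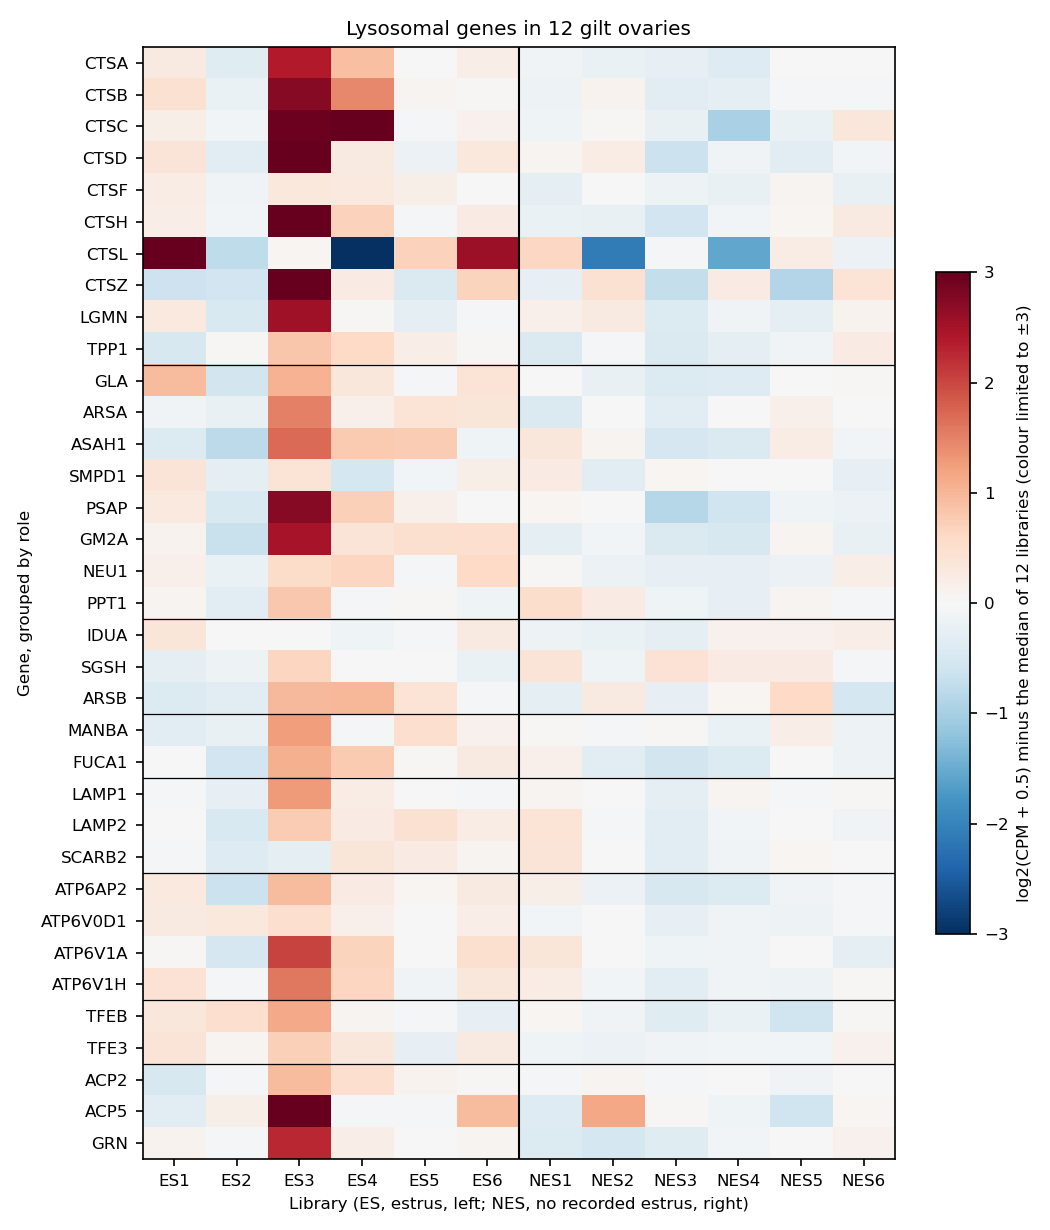
Deviation of log2(CPM + 0.5) from the median of the 12 libraries for each of the 35 lysosomal genes (rows, grouped by role) in each ovary (columns, ES left of NES). The ES3 column is above the median in nearly all rows, ES4 is high in CTSC and low in CTSL, and ES2 and NES3 are mostly below it.

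Macrophage genes were high in the same ovary. LAPTM5, a lysosomal membrane protein of leukocytes, had 309 CPM in ES3, 29.8 to 46.8 CPM in the other ES ovaries and 17.8 to 43.4 CPM in NES. LYZ, lysozyme, had 417 CPM in ES3, and its other values lay between 0.639 and 5.21 CPM. ITGAM, an integrin of myeloid cells, had 259 CPM in ES3, against a maximum of 25.8 CPM in the other ES ovaries and 38.0 CPM in NES. Not all markers rose so far. CD163 and MRC1 had 36.5 and 34.4 CPM in ES3, close to their NES maxima of 34.1 and 32.7 CPM. Markers of osteoclast-type and lipid-laden macrophages (13 genes, 7 of them past the filter) summed to 2198 CPM in ES3. They summed to 131 to 294 CPM in the other ES ovaries and 79.3 to 158 CPM in NES. GPNMB and TREM2 are on both macrophage lists, so the sums of these lists are not separate observations. In that list 12 of 13 genes were highest in ES3, with SPP1, GPNMB and APOE at 238, 246 and 1437 CPM. SPP1 also had 116 CPM in ES6, against an NES maximum of 10.1 CPM. MMP12 was the exception, at 0 in ES3 and highest in ES1 at 0.311 CPM. FABP4, MMP12, DCSTAMP, OCSTAMP and ATP6V0D2 were at 0 in some library. The part of such cells in the lysosomal levels was not tested, and in bulk tissue more cells of a type and more RNA per cell cannot be told apart.

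Luteal markers were also higher in ES by their sums. Of 10 with a locus, 8 were tested and edgeR called 0 (0.945% of all loci). All 8 were higher in ES at an unadjusted p under 0.05 with edgeR (9.5% of all loci). DESeq2 called 4 (5.22% of all loci) and gave no adjusted p-value for 2. The 10 luteal genes with a locus summed to 3869, 1011, 2552, 893, 892 and 1744 CPM in ES1 to ES6, against 391 to 642 CPM in NES, so the sums did not overlap. APOE and PLIN2 are on this list and on the lipid-laden list, and APOE gave 1437 CPM of the ES3 sum. Of the 10 genes, APOE, PTGFR and PLIN2 were highest in ES3, while STAR, which carries cholesterol into mitochondria, was lowest there: 11.6 CPM in ES3, 59.9 to 728 CPM in the other ES ovaries and 27.1 to 63.8 CPM in NES. SCARB1 and CYP11A1, also abundant, were highest in ES1. HPGD was at 0 in ES3, and OXT in several libraries. Oocyte markers (9 genes, KIT the most abundant) summed to 237 CPM in ES3, 281 to 1629.5 CPM in the other ES ovaries and 247 to 460 CPM in NES. KIT had a mean count of 26409, against 1116 for GDF9, the next of the list, so these sums mostly follow KIT. Epithelial and ciliated markers (7 genes) summed to 248 CPM in ES6 and to between 3.63 and 18.3 CPM elsewhere. The part of these cells in the lysosomal levels was not tested.

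Further lysosome genes were taken from a longer list. Of 54 with a locus, 52 were tested and edgeR called 0, with 9 higher (9.5% of all loci) and 2 lower (6.79%) in ES at an unadjusted p under 0.05. DESeq2 called ARSG (5.22% of all loci) and gave no p-value for 4 of the genes. In all, 46 of the 52 had a positive log2 difference (56.2% of all loci; median 0.34, and 0.12 without ES3), and 36 were highest in ES3 (69.2%). NAAA, an acid amidase that degrades N-acylethanolamines, had 134 CPM in ES3, 6.07 to 10.5 CPM in the other ES ovaries and 5.84 to 7.38 CPM in NES. IGF2R, the receptor for mannose 6-phosphate that delivers new hydrolases, had 353, 181, 478, 265, 213 and 219 CPM in ES1 to ES6, against 165 to 207 CPM in NES, with only ES2 inside the NES range. CTSV, a relative of CTSL, had 17.2 to 28.4 CPM in ES and 11.9 to 18.8 CPM in NES. ARSG, a sulfatase of heparan sulfate breakdown, went the other way with 2.38 to 3.72 CPM in ES, against 3.71 to 5.24 CPM in NES, and a log2 difference of -0.50 ± 0.15 (edgeR adjusted p = 0.139).

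The other MiT/TFE genes were also high in ES3. MITF, known from melanocytes and osteoclasts, had 1913 CPM in ES3, 259 to 998 CPM in the other ES ovaries and 465 to 1033 CPM in NES. TFEC, a relative expressed in macrophages, had 17.98 CPM in ES3 and 1.06 to 2.08 CPM in the other 11 libraries. Their log2 differences without ES3 were -0.33 ± 0.30 for MITF and -0.055 ± 0.23 for TFEC.

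Autophagy genes, which feed the lysosome, differed by less. Of 24 with a locus, 22 were tested and edgeR called 0, with 8 higher in ES at an unadjusted p under 0.05 (9.5% of all loci). TFEB, also among the 35 lysosomal genes, is on this list. DESeq2 called MAP1LC3A, ATG12 and SQSTM1 (5.22% of all loci). The log2 difference was positive in 22 of 22 (56.2% of all loci; median 0.23), and in 21 without ES3 (median 0.097). MAP1LC3A, a protein of the autophagosome membrane, had 22.2 to 27.7 CPM in ES, against 15.1 to 20.6 CPM in NES. It was the only 1 of the 22 without overlap (0.509% of all loci). Its log2 difference was 0.46 ± 0.10 (edgeR adjusted p = 0.0564). ATG12, a ubiquitin-like conjugation protein, had 42.5 to 68.3 CPM in ES, against 34.7 to 45.8 CPM in NES. SQSTM1, a cargo receptor, had 148, 101, 285, 228, 134 and 159 CPM in ES1 to ES6, against 86.1 to 127 CPM in NES, a log2 difference of 0.75 ± 0.22 (edgeR adjusted p = 0.126), and 0.55 ± 0.18 without ES3.

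The other 11 symbols had no row of their own and were left out of every count above. HEXA, IDS, MAN2B1 and CLN3 match loci that the table lists under an Ensembl identifier. The HEXA locus, the alpha subunit of beta-hexosaminidase, had 153 CPM in ES3, 39.9 to 74.7 CPM in the other ES ovaries and 43.0 to 63.3 CPM in NES. MAN2B1, lysosomal alpha-mannosidase, had 149.9 CPM in ES3, 40.9 to 54.5 CPM in the other ES ovaries and 35.3 to 48.8 CPM in NES. IDS, iduronate sulfatase, and CLN3, a membrane protein lost in Batten disease, were also highest in ES3, at 147 and 18.6 CPM, against NES maxima of 108 and 14.6 CPM. GLB1, GUSB, NAGLU, GAA, MCOLN1 and ATP6AP1 stand in loci joined with a neighbouring gene, so their reads cannot be separated. The locus that joins NAGLU, MLX and COASY had 89.1 to 179 CPM in ES, against 157 to 469 CPM in NES (log2 difference -1.09 ± 0.24, edgeR adjusted p = 0.0564), a difference that cannot be assigned to any of the 3 genes. CTSK had no named locus of its own.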

How the data were processed

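Ribosomal RNA was removed from the total RNA of 12 left ovaries and dUTP libraries that keep strand were prepared, per the labels' protocols. Per the submitters' processing notes, the tools were HISAT2, TopHat, FastQC and cutadapt and the build Sscrofa11.1. Which program counted reads, with which annotation and strand setting, is not given in the sources used here. Raw counts and FPKM values (scaled by the authors to locus length and library size) were deposited for 29150 loci, per the file headers. Totals were 58140547 to 68961955 counts per library, and loci with a blank gene name held 4.47 to 6.6% of them; they stayed in the library totals.

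Groups came from the sample titles. Counts of loci with a mean of at least 0.5 FPKM were tested with edgeR 4.0.16 (quasi-likelihood test, TMM factors, no covariate, R 4.3.3), with Benjamini-Hochberg adjustment over 20421 loci and calls at an adjusted p under 0.05. CPM values carry TMM factors, and an SE is the log2 difference over the root of its F value. The fits were also run on simulated counts in which no library stood apart, so that check does not cover a library such as ES3. Alternatives were DESeq2 1.42.0, limma 3.58.1 on log2(FPKM + 0.5, 0.1 or 1), median-of-ratios scaling or library totals, and no filter or a minimum of 1 FPKM. Others were the title number as a block, and libraries left out. Choosing the locus of highest mean FPKM for a symbol gave the same locus for all 35 genes, so no fit was made for it. The fits without ES3 and ES4 together and of DESeq2 without ES3 were chosen after seeing the data.

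The genes and the lists were chosen with earlier results of these data known, so neither counts as independent evidence. Values of each library are given for the 8 lysosomal genes with the smallest p-values, the 6 with the largest ratio of the highest library to the median, and TFEB, TFE3 and LAMP1, and values for the 4 genes of smallest p in the other lists of lysosome and autophagy genes; MITF, TFEC, GRN and the other genes given by ranges were added to complete the roles. Gene identity of loci under Ensembl identifiers, and RefSeq spans, came from name tables of the same build. Tables and plots were made with matplotlib 3.10.9, numpy 2.4.6, pandas 2.3.3 and Python 3.11.15. No sequence is printed and the planned promoter motifs were not used here.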

Additional observations from a re-analysis of the deposited data

Results flagged for a closer look

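Within a group of 6 ovaries, a library was marked where its gap to the nearest other library exceeded Dixon's critical value of 0.625 of the group's range, on log2(CPM + 0.5). Of 72 groups looked at, 13 were marked. For a single group chance marks about 1 in 20, but the groups share the same 12 ovaries, so that rate does not apply to their count. In 12 of them ES3 was the highest ES library. The proteases CTSD (0.836), CTSH (0.789), LGMN (0.748) and CTSZ (0.729) were among them. GRN had the largest gap, 0.893 of the ES range, and ACP5 was marked with 0.74. LAMP1 (0.684), SGSH (0.662), PPT1 (0.639), ARSA (0.637), PSAP (0.626) and GM2A (0.625) lay closer to the critical value. SGSH and PPT1 are in this list although their log2 differences, ES minus NES, were -0.17 and 0.017, since ES3 was high and the other ES ovaries were not. The remaining mark was TFE3 in NES, where NES6 was the highest library (0.681), at 34.98 CPM, against 28.4 to 30.4 CPM in the other NES ovaries. CTSC was not marked, because ES3 and ES4 were both high.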

How the results depend on the processing

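The count of all loci called depended on the settings, 193 by edgeR against 1065 with DESeq2 (995 without ES3), 364 with library totals, 28 with no filter, 337, 334 and 319 with limma at pseudocounts of 0.5, 0.1 and 1, 0 with the replicate number as a block, and 1 each without ES3 and ES6 or ES3 and ES4. With a single library left out it ran between 0 and 415: 415 without NES6, 85 without ES3, 68 without ES5, 1 without NES2, and 0 without any of ES2, ES4 and ES6 or without any of NES1, NES3, NES4 and NES5. Of the 35 lysosomal genes, 0 were called in 22 of 24 alternatives, 2 with DESeq2 and 1 with DESeq2 without ES3, the 2 fits with the most loci called. Their median log2 difference of 0.59 was 0.25 to 0.72 with a library left out, lowest without ES3, 0.42 with the replicate number as a block, 0.29, 0.36 and 0.29 with limma at 0.5, 0.1 and 1 and 0.19 without ES3 and ES4. The title numbers are not said to mark litters, and the correlations of same-numbered deviations ran between -0.0698 and 0.289, with 2 of 6 numbers matching best with their own, so they were not treated as pairs. The median log2 difference of all loci was -0.031 with library totals and 0.043 with TMM factors.

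A positive or negative sign held in all alternatives for 26 genes and not for 9; the cause was not tested. Without ES3 and ES6, ACP5 was -0.22, CTSZ -0.29, LGMN -0.053, SMPD1 -0.065 and PPT1 -0.15. Without ES3 and ES4, CTSZ was -0.11, LAMP1 -0.073, LGMN -0.076, PPT1 -0.17, ARSB -0.18, SCARB2 -0.029 and ACP2 -0.063. With DESeq2 without ES3, CTSZ was -0.025, LAMP1 -0.0053, LGMN -0.051, SMPD1 -0.013 and PPT1 -0.17. Library totals gave SMPD1 -0.0012, PPT1 -0.058 and SCARB2 -0.071. Limma at 0.5, 0.1 and 1 gave SMPD1 -0.035, -0.042 and -0.028, PPT1 -0.095, -0.098 and -0.091, and SCARB2 -0.097, -0.098 and -0.095. The block gave PPT1 -0.011 and SCARB2 -0.0071, and SCARB2 was -0.00011 with DESeq2, -9.994e-05 with median-of-ratios scaling and -0.0074 with no filter. With a library left out, CTSZ ran between -0.031 and 2.22, LAMP1 between -0.0075 and 0.41, LGMN between -0.053 and 1.01, SMPD1 between -0.013 and 0.17, PPT1 between -0.17 and 0.12 and SCARB2 between -0.081 and 0.083. ARSB rests on 9 to 85 counts a library.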

Other observations

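The deposited table marks 112 loci with the KEGG lysosome term, 28 of the 35 genes among them. This set was looked at after the values were seen. Of the 72 tested loci with the term that are not among the 35, 43 (59.7%) were highest in ES3, beside 19.7% of all loci, and 64 had a positive log2 difference with a median of 0.26, or 0.089 without ES3. Summed over all 84 loci with the term outside the 35, tested or not, the level was 8663 CPM in ES3. It was 4071 to 5799 CPM in the other ES ovaries and 4331 to 5359 CPM in NES. ES3 thus stood at 1.88 times the median of the other libraries for these loci, and at 4.50 times for the 35 genes.

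The opposite-strand row of CTSB, a short locus inside the gene, had 69.0 CPM in ES3, 10.2 to 18.7 CPM in the other ES ovaries and 10.5 to 18.3 CPM in NES, and CTSB itself had 1731 CPM in ES3. Whether these counts are separate transcripts was not tested. The opposite-strand rows of SCARB2 and the SCARB2 row itself had no excess in ES3.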
